A study of Mus musculus with 20 samples.

Results

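The Cd3g, Cd3d and Cd3e genes lie side by side on mouse chromosome 9, and their locus was taken as all peaks with at least 1 bp between positions 44760000 and 44840000 of the mm9 build, a stretch of 80 kb. It held 192 of the 270514 peaks of the 16 deposited lists. All samples were CD4+/CD8+ double-positive (DP) T cells from the thymus of C57BL/6 mice, with no other genotype, treatment or time named, so the lists are labelled alike but for the target. Chromatin immunoprecipitation and sequencing (ChIP-seq) gave lists for RNA polymerase II (Pol II) in 3 forms (total, Ser5P and Ser2P), for TBP and Taf1, for TFIIA, TFIIB, TFIIE, TFIIF and TFIIH, for the coactivator CBP, for the factor ETS1 and for the histone marks H3K36me3, H3K4me1 and H3K4me3, and FAIRE, which recovers open chromatin without an antibody, gave the other. Each target had 1 list, so the spread between animals is unknown and no test was made, and read depth was not given.

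CD3 gamma, CD3 delta and CD3 epsilon are among the signalling chains of the T-cell receptor complex. They pair as gamma-epsilon and delta-epsilon dimers beside the receptor's antigen-binding chains and carry tyrosine motifs that are phosphorylated when the receptor is engaged. The genes are switched on early in the T lineage and are widely used as markers of T cells. Pol II is loaded at start sites by general factors: TBP and Taf1 belong to TFIID, TFIIA and TFIIB bind next to TBP, TFIIF escorts Pol II, and TFIIE and TFIIH complete the complex. Serine 5 of the Pol II tail is phosphorylated near initiation and serine 2 during elongation.

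In the RefSeq annotation of GRCm38.p6 the genes stand in the order Ube4a, Cd3g, Cd3d, Cd3e and Mpzl2, with the pseudogene Gm19121 listed between Ube4a and Cd3g. Cd3d is read on the plus strand, and Ube4a, Cd3g and Cd3e on the minus strand, so Cd3g and Cd3d start next to each other and run apart. Ube4a encodes a ubiquitin ligase of the U-box type. An annotation of mm9 was not used here, so peaks are given by position and the gene order is the only link to the genes that was used. Distances between the annotated starts were not compared with those between peaks. If the order is the same in mm9, the starts follow each other as Ube4a, then the divergent pair Cd3g and Cd3d, then Cd3e.

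The 250 bases before the annotated start of each Cd3 gene are shown because the strongest sites of the locus are read against the order of these starts. They come from RefSeq, build GRCm38.p6, and run 5′ to 3′ on the strand of the gene. Capitals mark GGAA, the core letters of ETS-family sites, or its reverse complement TTCC. The coordinates belong to that build and cannot be set against the mm9 peaks.
Cd3g, minus strand, chr9:44980432-44980681: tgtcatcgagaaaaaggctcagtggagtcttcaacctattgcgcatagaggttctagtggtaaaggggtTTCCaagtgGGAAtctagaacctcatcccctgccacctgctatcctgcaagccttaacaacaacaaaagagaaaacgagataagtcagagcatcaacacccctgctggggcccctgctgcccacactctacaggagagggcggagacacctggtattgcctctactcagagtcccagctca
Cd3d, plus strand, chr9:44981536-44981785: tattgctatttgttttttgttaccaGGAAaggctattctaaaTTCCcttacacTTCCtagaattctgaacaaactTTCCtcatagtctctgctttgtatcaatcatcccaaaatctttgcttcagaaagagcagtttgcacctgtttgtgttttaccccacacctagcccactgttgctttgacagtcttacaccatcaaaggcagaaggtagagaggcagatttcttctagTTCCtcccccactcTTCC
Cd3e, minus strand, chr9:45009612-45009861: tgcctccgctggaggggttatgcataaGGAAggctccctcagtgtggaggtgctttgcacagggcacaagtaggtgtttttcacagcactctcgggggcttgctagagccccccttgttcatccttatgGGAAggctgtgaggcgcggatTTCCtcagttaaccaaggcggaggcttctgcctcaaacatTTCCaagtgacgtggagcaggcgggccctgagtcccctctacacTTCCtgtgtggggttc

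The ETS core occurred 6 times before Cd3d, 5 times before Cd3e and 2 times before Cd3g, and 93.4% of the 32851 RefSeq promoter windows of this length hold it on one strand or the other, with a median of 3 matches. A TATAAA box was found before none of the 3 genes (12.4% of all windows hold it), and neither were the CRE letters TGACGTCA (1.55%), the RUNX core TGTGGT (14.0%) or the longer ETS site CCGGAAG (6.91%). The GC box GGGCGG occurred before Cd3g only, at 44 bases before the start (32.7% of windows). The E-box CANNTG occurred 3 times before Cd3g and 1 time before each of the others (66.2% of windows), and GATA 2 times before Cd3g and 1 time before Cd3d (53.6%). The Cd3d window had no CpG and 41.2% G+C, that of Cd3g 4 CpG and 51.6%, and that of Cd3e 7 CpG and 57.2%, beside medians of 6 CpG and 52.4% over all windows. A match is a run of letters, not a bound site.

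To describe the locus, peaks of the 13 narrow lists (all but the histone marks) were joined into elements where the gap between them was at most 500 bp. This gave 14 elements. Elements that overlapped an H3K4me3 peak were called H3K4me3-marked, those that overlapped only H3K4me1 were called H3K4me1-only, and those with neither mark unmarked. The locus had 6 H3K4me3-marked, 6 H3K4me1-only and 2 unmarked elements, whereas of all 45023 elements of the genome 26.8% were H3K4me3-marked, 11.5% H3K4me1-only and 61.7% unmarked. Most narrow peaks, 120 against 36 elsewhere in the window, sat in 3 elements, each with 10 or 11 of the 13 lists. These are called here, in the order of their positions, the platform pair, the edge element and the far platform. The other 11 elements held 6 lists or fewer.

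**Figure D1:**
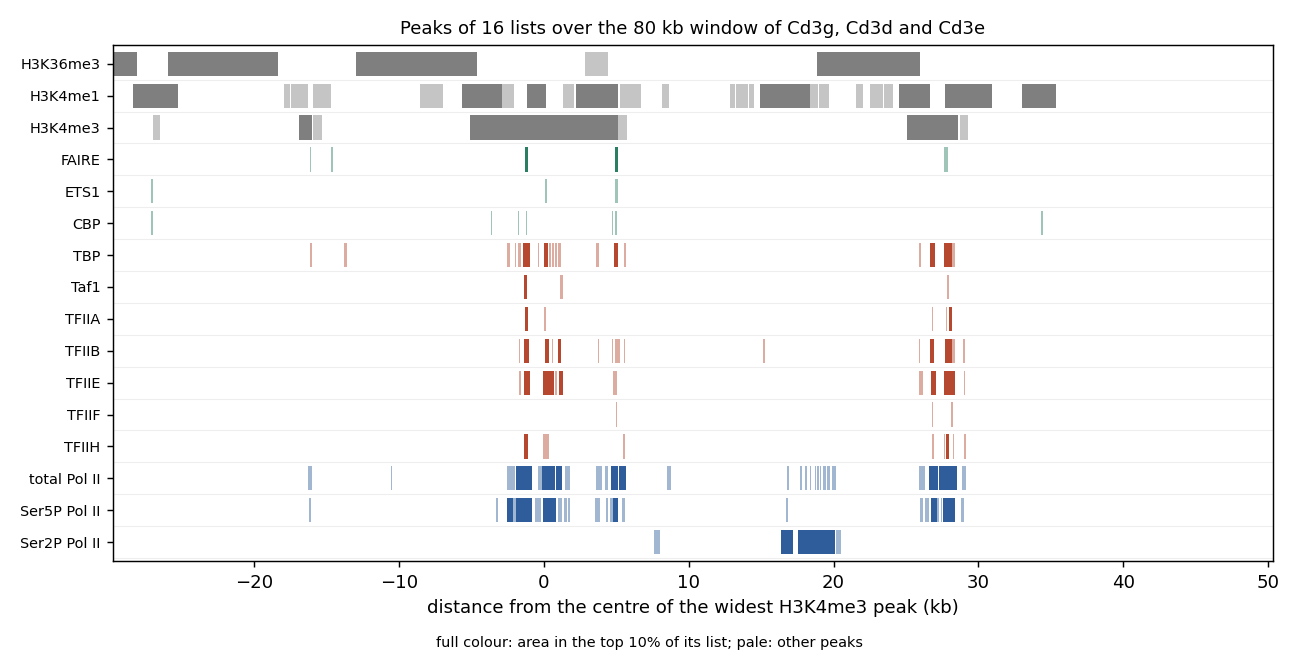
Peaks of the 16 lists along the 80 kb window, 1 row per list, by distance in kb from the centre of the widest H3K4me3 peak. Bars span the peaks, in full colour where the area is in the top 10% of its list and pale otherwise; factor peaks gather under the 10200 bp H3K4me3 peak and again 27.9 kb to the right, and Ser2P Pol II peaks stand between.

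The locus was among the densest of the genome in peaks. Only 10 of 33015 tiles of 80 kb (0.0303%, exact 95% binomial interval 0.0145 to 0.0557, counting error only) held at least 192 peaks, with a median of 2 and a maximum of 324 peaks per tile. The interval treats tiles as independent draws, whereas they cover each chromosome up to its last peak. The window was laid around the genes and the tiles were not, which favours the window. Among the 7192 tiles with a total Pol II peak the share was 0.139%. Peaks of high area were frequent too: 53 of the 192 peaks (27.6%) were in the top 10% of their list by area, against 10.0% over all peaks. Of the 53, 15 came from the histone lists, 19 from the platform pair, 12 from the far platform, 5 from the edge element and 2 from an element rich in Ser2P. No CBP (8 peaks), ETS1 (4 peaks) or TFIIF (3 peaks) peak of the locus reached the top 10% of its list. These peaks are too few to set that apart from the 10.0% over all peaks. Area grows with width, and by mean height (area divided by width) 40 peaks (20.8%) were in the top 10%.

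H3K4me3, the usual mark of active promoters, had its main peak from 44784601 to 44794800. At 10200 bp it was the 9th widest of 28013 H3K4me3 peaks, whose median was 650 bp, and it was also 9th by area. By mean height it ranked 852, in the top 3.04%, so its rank by area rests on its breadth. This single peak overlapped 76 narrow peaks, against 80 elsewhere in the window, and 12 of the 13 narrow lists, all but Ser2P. The remaining 6 H3K4me3 peaks spanned 490 to 3570 bp. The widest of these, at 44814741 to 44818310 over the far platform, ranked 154 by area and 820 by mean height. A peak of 890 bp at 44772821 to 44773710 ranked 277 by mean height, higher than either of the broad ones, and 2707 by area.

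The platform pair covered 4370 bp at 44787151 to 44791520 under the broad H3K4me3 peak. It held 54 peaks from 11 lists. Of the 12058 H3K4me3-marked elements of the genome, 0.373% had 11 or more lists, 0.0912% as many peaks and 0.381% as great a width. These shares were not adjusted for width, and wider elements have more room for lists. TFIIF and Ser2P were the lists with no peak there.

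TBP, which nucleates the initiation complex, had 10 peaks in the platform pair. The strongest, by area and by mean height, lay at 44788291 to 44788770 (area 359000 in the authors' track units, rank 421 of 15651) and the next at 44789701 to 44790000 (area 198000, rank 863). Their centres were 1320 bp apart. The left one overlapped 9 of the other 12 narrow lists, as did or exceeded 0.652% of all TBP peaks: total Pol II, Ser5P, Taf1, TFIIA, TFIIB, TFIIE, TFIIH, CBP and FAIRE. The right one overlapped 7 of them, as did or exceeded 5.54% of TBP peaks, with ETS1 in place of CBP, FAIRE and Taf1. By the gene order, a pair of platforms so close could take the place of the divergent Cd3g and Cd3d starts.

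The general factors were uneven between the members of the pair. Taf1, the largest TFIID subunit, had its strongest peak of the locus at the left platform, at 44788321 to 44788560 (area 52900, rank 260 of 13518), and peaks of 40 and 90 bp (areas 6010 and 13100) from 44790861 to 44791010, beyond the strong right TBP peak. TFIIA, which steadies TBP on DNA, had a peak of 240 bp at the left platform (area 40100, rank 202 of 6588) and 3 smaller ones at the right, of area 10400 at most. TFIIH, which carries the helicase and the kinase for serine 5, had areas of 38500 on the left and of 28800 and 23100 on the right. Its largest single peak was thus on the left, but the right-hand TFIIH peaks together had the greater area. The left TFIIH peak and the larger right one were of similar mean height. TFIIE, which recruits TFIIH, had its largest single peak on the right, at 44789671 to 44790430. That peak was larger in area (115000, rank 63 of 11678) than the TFIIE peak on the left (89900) but lower in mean height (rank 626 against 128). TFIIB, which bridges TBP and Pol II, had areas of 124000 on the left (rank 188 of 10999) and 88100 on the right.

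The element also held a group of peaks further to the right, between 44790561 and 44791020. Total Pol II (area 86000, rank 1205), TFIIE (43900, rank 753) and TFIIB (51600, rank 1009) were in the top 10% of their lists there. TBP (75000, rank 2903) and Ser5P (75400, rank 1350) had peaks beside them, below that limit. The TFIIB and TFIIE areas of this group were larger than the highest of the edge element, 42600 and 30400. It was the site of the small Taf1 peaks and had no TFIIA, TFIIH, CBP, ETS1 or FAIRE peak.

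Total Pol II had a peak of 1070 bp on the left platform, at 44787811 to 44788880 (area 326000, rank 95 of 18037), and one of 880 bp on the right, at 44789601 to 44790480 (area 201000, rank 252). Ser5P, the initiating form, had areas of 306000 (rank 142 of 10644) and 279000 on these platforms. The strongest Ser5P peak thus fell on the left platform, beside the strongest TBP, Taf1 and TFIIA peaks of the locus. FAIRE had a single peak in the pair, at 44788391 to 44788620 on the left (rank 1104 of 11176). ETS1, a transcription factor of T cells, had a single peak too, at 44789801 to 44789910 on the right, of modest rank (1330 of 2359).

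H3K4me1, more often a mark of enhancers and promoter flanks, had a peak from 44788581 to 44789850 that filled the space between the strong TBP peaks. By mean height it ranked 64 of 74607, in the top 0.0858%, and by area 5738. From the middle of the right TBP peak onward came the longest stretch without an H3K4me1 peak under the broad H3K4me3 peak, 1170 bp from 44789851 to 44791020, into which the right-hand TFIIE, total Pol II and Ser5P peaks reached. In all, H3K4me1 peaks covered 78.0% of the broad H3K4me3 peak, so the H3K4 marks overlapped along most of it.

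**Figure D2:**
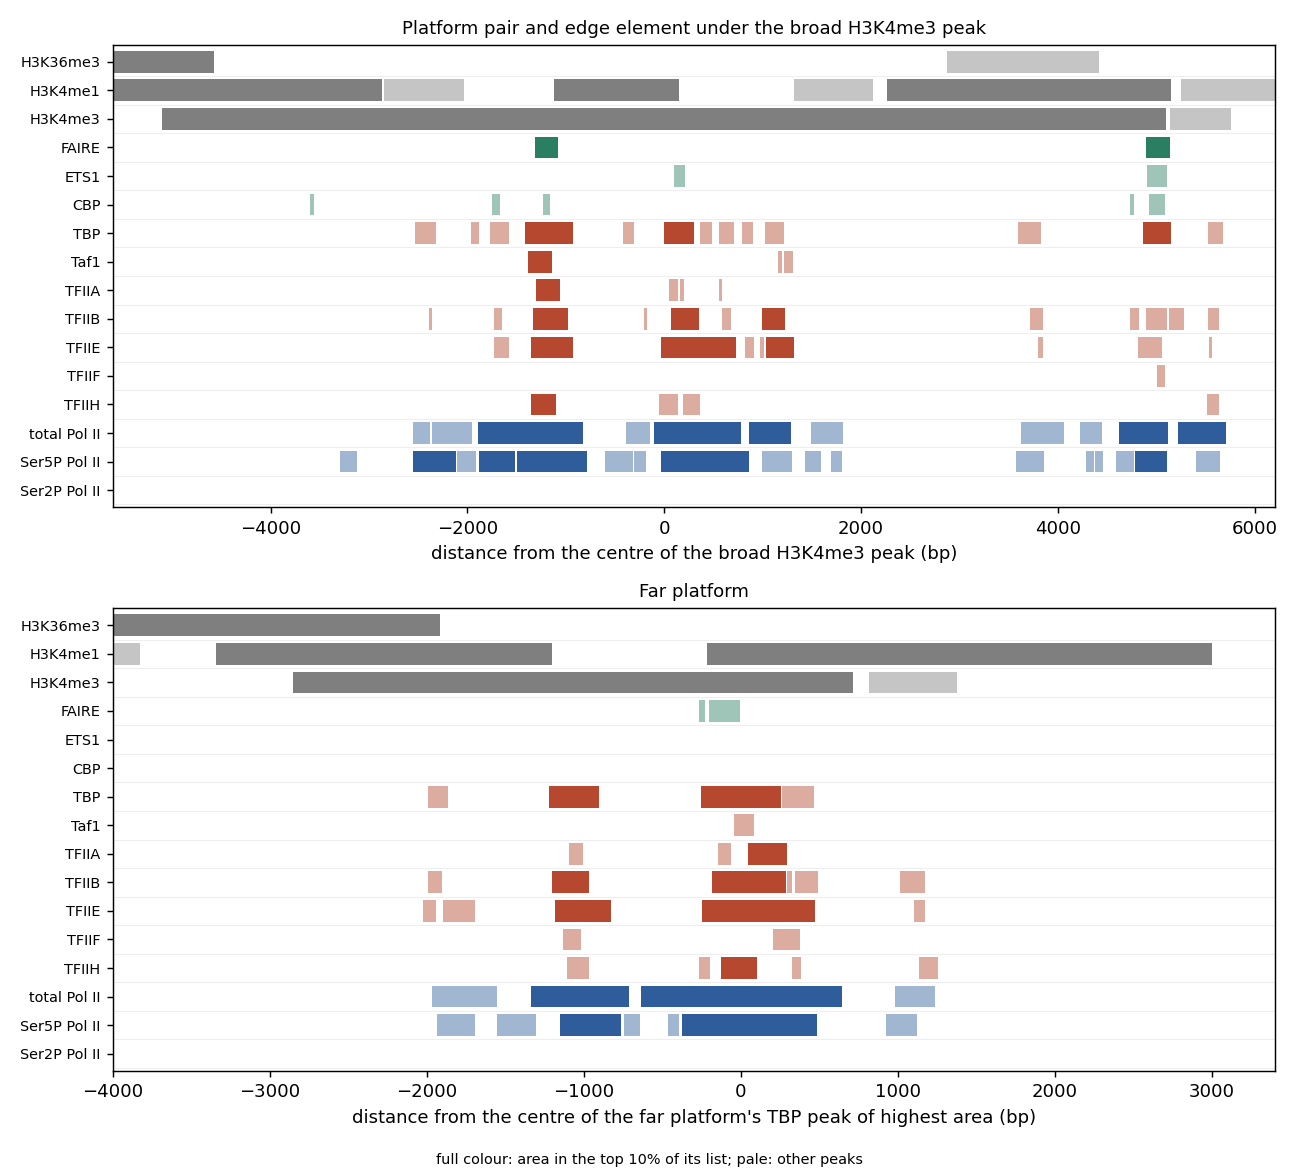
Peaks of the 16 lists around the platform pair and the edge element (upper panel) and the far platform (lower panel), by distance in bp from the centre of the 10200 bp H3K4me3 peak or of the TBP peak of highest area at the far platform. Bars span the peaks, in full colour where the area is in the top 10% of its list; CBP and ETS1 rows are filled in the upper panel and empty in the lower one, and Ser2P is empty in both.

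The edge element lay 1750 bp beyond the platform pair, at 44793271 to 44795410, across the right end of the broad H3K4me3 peak. It held 27 peaks from 10 lists, and 1.51% of H3K4me3-marked elements had 10 or more. Its missing lists were Taf1, TFIIA and Ser2P. Of the 182 such elements in the genome 68.7% had a Taf1 peak and 75.8% a TFIIA peak, and 8.79% had neither. Choosing elements with 10 or more lists raises these shares of presence by itself. Of all 12058 H3K4me3-marked elements 8.89% had a Taf1 peak and 9.42% a TFIIA peak. The nearest Taf1 peak was 2260 bp away and the nearest TFIIA peak 2980 bp away, both in the platform pair.

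The centre of the edge element was a TBP peak at 44794561 to 44794850 (area 128000, rank 1478) that overlapped 8 of the other narrow lists, as did or exceeded 2.27% of TBP peaks. CBP, a histone acetyltransferase that serves as a coactivator, had its peak of highest area in the locus inside it, at 44794631 to 44794790 (area 20200, rank 1098 of 6372). ETS1 at 44794611 to 44794810 (area 15100, rank 564 of 2359) and FAIRE at 44794601 to 44794840 (rank 883 of 11176) were likewise of the highest area in the locus. By mean height none of these led: ETS1 (rank 929) stood below its peak at 44762601 to 44762760 (rank 422), CBP (rank 2689) below its peaks at 44762601 to 44762750 (rank 2288) and 44824011 to 44824140 (rank 2520), and FAIRE (rank 1440) below those at 44775001 to 44775160 (rank 690) and 44817391 to 44817590 (rank 1158). The CBP peak lay wholly within the ETS1 and FAIRE peaks. Peaks of all 3 lists were present at 42.9% of the 182 elements with 10 or more lists. TFIIF had a peak of 80 bp there (rank 990 of 1262), near the bottom of its list. Pol II was present but of lower area than at the platforms, with a top rank of 778 for total Pol II and 1003 for Ser5P. By mean height these peaks (223 and 279) were close to the right platform's total Pol II peak (229) and the far platform's largest Ser5P peak (280). Left-platform peaks were taller (305 and 424), as were the far platform's tallest total Pol II peak (275) and the right platform's Ser5P peak (313). TFIIB and TFIIE ranked 1398 and 1519, and a TFIIH peak of rank 4707 of 8618 lay to the right, at 44795211 to 44795340. H3K4me1 was strong across the element, with a peak of 2890 bp at 44791961 to 44794850 that ranked 2168 of 74607 by area.

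The far platform, 24050 bp to the right of the platform pair, covered 3280 bp at 44815571 to 44818850. It held 39 peaks from 10 lists. By the gene order it could take the place of the Cd3e start. Order alone does not choose between it and the edge element, which also had 10 lists. The lists missing at the far platform were CBP, ETS1 and Ser2P. Of the 182 elements with 10 or more lists 3.85% (7 elements) lacked both CBP and ETS1. Such absences are made rare by the choice of elements with 10 or more lists, so this share does not set the far platform apart. Of all 12058 H3K4me3-marked elements only 14.8% had a CBP peak and 11.8% an ETS1 peak. Absence here means no peak in the deposited list, whose threshold is unstated. The nearest CBP peak was 5160 bp away, at 44824011 to 44824140, and the nearest ETS1 peak 10650 bp away.

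TBP had 4 peaks at the far platform. The one of highest area, at 44817341 to 44817850 (area 282000, rank 563), overlapped 9 of the other 12 narrow lists, and the next, at 44816371 to 44816690 (area 228000, rank 715), overlapped 7. Their centres were 1065 bp apart, so the far platform too had a pair of TBP maxima, although, read as the Cd3e start, it would hold a single gene start. By mean height the order was the reverse, with 553 (rank 1146) for the former and 713 (rank 721) for the latter. The peak of higher area carried the FAIRE and Taf1 peaks, and the other did not. The Taf1 peak was 130 bp wide and had a smaller area than at the platform pair (27900 against 52900, rank 2604), at a similar mean height (214 against 220).

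TFIIE reached its highest area of the locus at the far platform, with a peak at 44817351 to 44818070 of area 131000 that ranked 41 of 11678. By mean height the TFIIE peak on the left platform of the pair stood above it (rank 128 against 241). TFIIB was also highest in area here (area 128000, rank 176), though by mean height the left platform of the pair stood above it (rank 221 against 486). TFIIA had a top area of 39400 (rank 214) and TFIIH one of 34300 (rank 715), close to the 40100 and 38500 of the platform pair. With 1 list per target no error can be put on these differences. TFIIF, which had no peak in the platform pair, had 2 here, with areas of 9160 and 13900 (rank of the stronger 251 of 1262). Of elements with 10 or more lists 41.2% had a TFIIF peak.

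Total Pol II at the far platform had its widest peak of the locus, 1280 bp at 44816961 to 44818240 (area 267000, rank 143, but 1339 by mean height), and Ser5P had a peak of 860 bp at 44817221 to 44818080 (area 241000, rank 216). The tallest total Pol II peak here was another, at 44816261 to 44816880 (mean height 275, rank 534 by height), over the TBP peak without FAIRE. Both FAIRE peaks lay under the TBP peak of higher area, the larger at 44817391 to 44817590 (rank 1183 of 11176).

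Shares of each list's summed peak area in the locus placed the platform pair ahead for Pol II. It held 42.0% of the total Pol II area (3540 bp covered, mean height 211), against 30.1% at the far platform (2560 bp, mean height 209) and 15.6% at the edge element (1660 bp, mean height 167). Ser5P leaned more to the pair, with 55.1% (3600 bp, mean height 283) against 26.7% (2110 bp, mean height 234) and 14.0% (1210 bp, mean height 215). TBP had 47.5% of its area in the pair (1960 bp), 32.7% at the far platform (1160 bp) and 14.2% at the edge element (690 bp), and its mean height was greatest at the far platform, at 526 against 452 and 385. Total Pol II was therefore nearly as high over the far platform as over the pair, and its larger share in the pair went with a greater covered length.

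**Figure D3:**
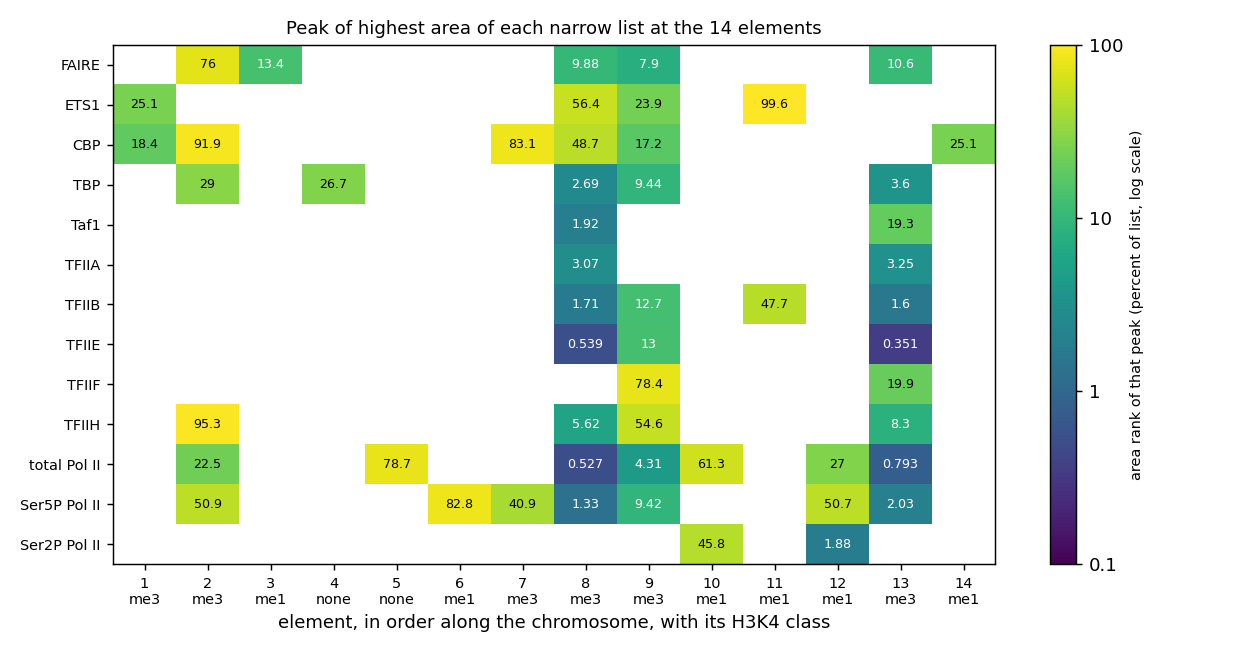
Peak of highest area of each of the 13 narrow lists (rows) at the 14 elements (columns, in order along the chromosome, with H3K4me3-marked as me3, H3K4me1-only as me1 and unmarked as none). Numbers and colour give the rank of its area as a percent of its list, on a log colour scale where lower is stronger, and blank cells have no peak; columns 8, 9 and 13 are the platform pair, the edge element and the far platform.

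Peaks of the elongating form of Pol II lay apart from these platforms. All 4 Ser2P peaks of the locus lay outside H3K4me3 peaks. Few H3K4me3-marked elements of the genome held a Ser2P peak: 1.6% of the 12058, and 18.7% of the 182 with 10 or more lists. The Ser2P list is short, with 1811 peaks, which by itself keeps these shares low. How many of all Ser2P peaks lay outside H3K4me3 peaks was not computed. The Ser2P peak of highest area in the locus, at 44807241 to 44809790, spanned 2550 bp and ranked 34 of 1811 by area and 200 by mean height. Its neighbour at 44806051 to 44806890 ranked 148 by area and also 148 by mean height, and so was the taller. These peaks, a Ser2P peak at 44809891 to 44810200 (rank 853), 11 weak total Pol II peaks (best rank 4876 of 18037) and a Ser5P peak at 44806411 to 44806560 (rank 5393) formed an H3K4me1-only element of 4150 bp at 44806051 to 44810200. Of the H3K4me1-only elements of the genome 21.0% had 3 or more lists, and 0.346% were as wide. It stood 5370 bp to the left of the far platform. The fourth Ser2P peak, at 44797351 to 44797710 (rank 829), was 1940 bp to the right of the edge element. It belonged to an H3K4me1-only element of 1140 bp at 44797351 to 44798490 with 3 weak total Pol II peaks (best rank 11049), and 1.54% of H3K4me1-only elements were as wide.

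H3K36me3, which is laid down over transcribed gene bodies, had 5 peaks that touched the window, of which 4 were in the top 10% of the list by area (10.0% of the list). The first, of 14710 bp and rank 371 of 49181, ran past the left edge of the window from 44746971 to 44761680, and others covered 44763801 to 44771360, 44776751 to 44785130 and 44808571 to 44815680. The last of these ran from inside the Ser2P-rich element to the left end of the far platform. A smaller peak of 1550 bp at 44792571 to 44794120 lay under the broad H3K4me3 peak and reached the edge element. Broad H3K36me3 peaks, of 8380 and 7110 bp, thus lay to the left of the platform pair and of the far platform.

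Weaker elements completed the locus. An H3K4me3-marked element at 44773241 to 44774030 had 6 lists and by the gene order could take the place of the Ube4a start. Total Pol II (rank 4061), TBP (rank 4535), Ser5P (rank 5414), FAIRE and CBP overlapped the H3K4me3 peak of 890 bp, and a weak TFIIH peak (rank 8209 of 8618) lay under the next H3K4me3 peak, of 580 bp at 44773801 to 44774380. At the left end, CBP (44762601 to 44762750, rank 1175) and ETS1 (44762601 to 44762760, rank 593) peaks started at the same base. They overlapped a strong H3K4me1 peak of 3120 bp and the outer bases of a weak H3K4me3 peak (rank 22354 of 28013), and no Pol II, TBP or FAIRE peak lay with them.

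Among the H3K4me1-only elements, ETS1 and TFIIB met at 44804871 to 44804990, in the widest H3K4me1 peak of the locus (3480 bp at 44804601 to 44808080, rank 1200 of 74607). This ETS1 peak was 30 bp wide and ranked 2350 of 2359, so its area was among the lowest of its list, and the TFIIB peak ranked 5247. Of H3K4me1-only elements 39.2% had 2 or more lists. A CBP peak stood alone at 44824011 to 44824140 (rank 1597 of 6372), in an H3K4me1 peak of 2310 bp, 5160 bp beyond the far platform. FAIRE at 44775001 to 44775160 (rank 1492) and Ser5P at 44781561 to 44781610 (rank 8812) were also alone. The unmarked elements were a TBP peak at 44775931 to 44776110 (rank 4180) and a total Pol II peak at 44779161 to 44779250 (rank 14188). The last H3K4me3-marked element, at 44786101 to 44786580, joined weak CBP and Ser5P peaks under the left part of the broad H3K4me3 peak.

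**Figure D4:**
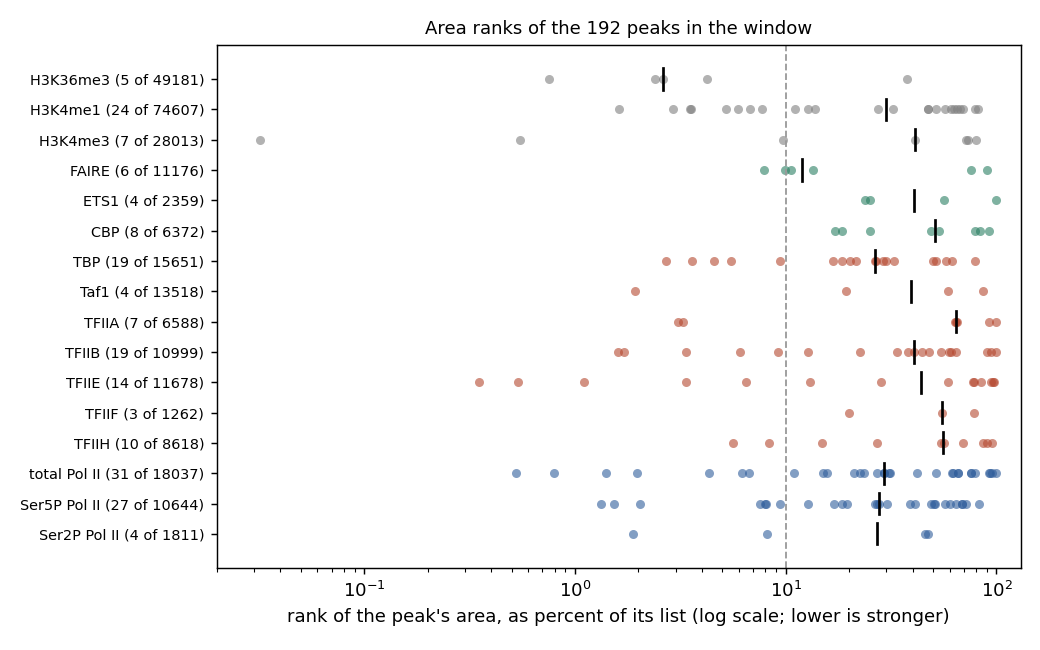
Rank of each of the 192 peaks by area, as a percent of its list (horizontal, log scale, lower is stronger), for the 16 lists (rows, with peaks in the window of peaks in the list). Points are peaks, black bars are medians and the dashed line marks the top 10%. CBP, ETS1 and TFIIF, with only 8, 4 and 3 peaks, have no point left of the line, and 1 H3K4me3 peak lies furthest left, at 0.0321%.

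Over all members of a list, the locus spread widely in rank. Median ranks ran from the top 2.62% for H3K36me3 to 55.5% for TFIIH and 64.2% for TFIIA, where the median over a whole list is 50% by definition. TBP (19 peaks) had a median rank of 26.5%, Ser5P (27 peaks) of 27.8%, total Pol II (31 peaks) of 29.4%, TFIIB (19 peaks) of 40.6% and TFIIE (14 peaks) of 43.6%. TFIIA shows how few peaks made the high values: 2 of its 7 peaks ranked in the top 3.25%, and the other 5 had areas of at most 10400 against 39400 and 40100. The last peak in the window, an H3K4me1 peak, ended at 44825040, and the next outside began at 44847181, also an H3K4me1 peak. On the left the nearest peak outside, of H3K36me3, ended at 44746800.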

How the data were processed

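ChIP-seq and FAIRE peak lists of 16 of the 20 samples were used; the samples of input chromatin, of rabbit immunoglobulin and of RNA (total and poly(A)) were not analysed here. Each deposited list gives position and area, the signal of the authors' track summed over a peak. Per the file headers and names, artefact regions had been taken out and scaling and background subtraction applied in all tracks except that of FAIRE, bins were 10 bp, and replicates were merged before 13 lists were made, while CBP, Taf1 and TFIIB came from 1 replicate each. Peak strength in those 3 lists therefore rests on a single library. The build was mm9, per the submitters' processing notes. Aligner, peak caller, threshold and read number were not given in the sources used here. Areas were ranked only within a list.

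Computed here were ranks, overlaps of at least 1 bp, elements (gap of at most 500 bp), 80 kb tiles and motif matches on both strands, with Python 3.11.15, numpy 2.4.6, pandas 2.3.3, scipy 1.17.1 and matplotlib 3.10.9. The code was tested on simulated data, where 300 of 300 elements were recovered with their lists and class. All elements are described; the peaks named are the one of highest area per list and all peaks of short lists, others being chosen after their values were seen. Names of elements were given after seeing the data. The locus and the lists were chosen with earlier results of these data known. Alternatives changed the gap, the overlap rule, the window, the peak threshold, the ranking and the tiles. A planned search of the CD3 proteins and a planned list of other receptor signalling genes were not run.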

Additional observations from a re-analysis of the deposited data

How the results depend on the processing

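No paired analysis was possible because each target had 1 list and no replicate lists, and leaving out a replicate was not possible for the same reason. With the upper 50% of each list by area, 117 peaks remained in the window in place of 192. The number of peaks in the top 10% of their list, 53, was 32 (16.7%) at the top 5% and 81 (42.2%) at the top 25%, changes that the definition itself brings. The share of tiles with at least as many peaks, 0.0303%, was 0.139% among tiles with a total Pol II peak, 0.0242% with tiles shifted by 40 kb and 0.0273% with the 13 narrow lists. Elements numbered 19 with a gap of 200 bp, 11 with a gap of 1000 bp and 12 in the upper 50% of each list, against 14. H3K4me3-marked elements numbered from 5 to 9 and H3K4me1-only elements from 5 to 7 over their alternatives, and the greatest number of lists at an element was 10 or 11. Read depth is unknown, so the absence of a peak does not separate a lack of binding from a lack of reads.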
